A study of Homo sapiens with 24 samples.

Results

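In THP-1 macrophages with CES1 knocked down, most genes of 2 stretches of the genome stood above their level in the control cells: a block on the long arm of chromosome 1 and nearly the whole measured short arm of chromosome 8. Members were protein-coding genes chosen by their start position. On chromosome 1 they ran from RNF115 (start at 145738868) to ETV3L (start at 157092044), called the 1q block, and on chromosome 8 they took in every gene up to GPAT4 (start at 41577187), called the 8p block. Coordinates are those of the table, which match GRCh38. A member also had to reach an FPKM of 1 (FPKM counts sequenced fragments relative to the length of a gene and to the size of its library) in 4 or more of 24 libraries. Of 288 protein-coding genes in the 1q block 161 passed, and of 252 in the 8p block 121 passed, giving 282 members among 10946 protein-coding genes kept. The blocks were chosen by the difference between the knockdown and control cells itself, so that difference is a description of the members. Genes counted as called on it in limma's fit are counted for description too, and support nothing about the choice. Statements below that the 2 lines did not overlap in a member are descriptions in the same way. The rest of each chromosome, by the same biotype and filter, held 1005 genes on chromosome 1 and 269 on chromosome 8.

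THP-1 is a human monocytic leukaemia line. All cells were turned into macrophages with 20 nM phorbol ester (PMA) for 72 hours. M0 cells had no further treatment, M1 cells had LPS at 1 ug/ml and interferon gamma at 100 ng/ml, and M2 cells had IL-4 at 100 ng/ml, for a duration that the labels do not state. The knockdown line (CES1KD) carried a stable lentiviral shRNA against CES1, carboxylesterase 1, an ester hydrolase of the endoplasmic reticulum. The comparison line is labelled WT, and whether it carried a control vector is not given, so effects of the vector, of the line's own history and of CES1 loss cannot be told apart. Each of the 6 groups of line and state had 4 libraries. The labels do not say that these were separate cultures, and the p-values therefore measure the spread between samples only, which may be technical.

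Genes side by side on a chromosome share its copy number and often its chromatin environment, while each keeps its own promoter and its own response to signals. The 1q block carries the S100 gene cluster, a cluster of histone genes, the epidermal differentiation complex, and survival and signalling genes such as MCL1 and LMNA, and gains of 1q recur in blood cancers. The short arm of chromosome 8 carries the defensins, the TRAIL receptors, LPL (lipoprotein lipase) and the scavenger receptor MSR1. DNA was not measured, so the number of copies in either line was not tested.

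CES1 was at 4.04 to 7.78 FPKM in the 12 WT libraries and at 0 to 0.124 FPKM in the 12 CES1KD libraries. The libraries held 14881563 to 26671681 fragments on genes. Of 10 macrophage and monocyte markers, 9 were at 1 FPKM or more in all 24 libraries, and the summed level of the 10 ranged from 992 to 2332 FPKM. CD68 was below 1 FPKM in all 24, where it overlaps a read-through gene. All 4 epithelial and all 4 erythroid markers, 4 of 5 lymphocyte markers (all but NKG7) and 3 of 4 fibroblast markers were below 1 FPKM in all 24. Library 2 of CES1KD M2 stood apart from the other libraries of its group, with correlations with them down to 0.951, where the lowest within the other groups was 0.977. Without it, 14 members of 1q and 11 of 8p changed their call between the lines in M2. The M2 difference of 18 and 16 members moved by over 1.5 times with the same sign. Several named members whose M2 difference changes its sign or its call, or moves so far, are given both ways, but not all.

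The promoters of the extreme 1q members are shown because the block holds genes that went opposite ways. They are RefSeq windows of GRCh38.p14 from 250 bases before to 50 after the annotated start, read 5′ to 3′ on the gene's strand. NPR1 and PLEKHO1 are the highest members with an entry, and FCGR1A and S100A4 the lowest. Capitals mark TATAAA or CCAAT, searched on both strands, and ATTGG is CCAAT on the opposite strand. The windows are chr1:153678438-153678737 on the plus strand for NPR1, chr1:150149396-150149695 on the plus strand for PLEKHO1, chr1:149782444-149782743 on the plus strand for FCGR1A and chr1:153545757-153546056 on the minus strand for S100A4.
NPR1: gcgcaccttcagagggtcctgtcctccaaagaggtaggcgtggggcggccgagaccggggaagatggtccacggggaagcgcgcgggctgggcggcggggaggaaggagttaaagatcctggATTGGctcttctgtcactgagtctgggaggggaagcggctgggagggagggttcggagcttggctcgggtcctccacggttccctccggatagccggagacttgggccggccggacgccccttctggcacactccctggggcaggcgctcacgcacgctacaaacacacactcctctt
PLEKHO1: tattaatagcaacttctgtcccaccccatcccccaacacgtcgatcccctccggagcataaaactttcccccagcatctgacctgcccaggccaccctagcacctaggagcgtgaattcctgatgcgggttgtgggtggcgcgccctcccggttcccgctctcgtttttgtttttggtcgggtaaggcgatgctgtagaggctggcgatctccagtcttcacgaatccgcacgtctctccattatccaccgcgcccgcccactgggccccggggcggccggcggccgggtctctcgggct
FCGR1A: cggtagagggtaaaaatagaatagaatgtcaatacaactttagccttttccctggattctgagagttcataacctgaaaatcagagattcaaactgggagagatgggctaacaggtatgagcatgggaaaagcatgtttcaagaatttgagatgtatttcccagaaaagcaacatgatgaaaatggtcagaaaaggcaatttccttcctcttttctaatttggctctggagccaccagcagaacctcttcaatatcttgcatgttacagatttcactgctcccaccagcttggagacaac
S100A4: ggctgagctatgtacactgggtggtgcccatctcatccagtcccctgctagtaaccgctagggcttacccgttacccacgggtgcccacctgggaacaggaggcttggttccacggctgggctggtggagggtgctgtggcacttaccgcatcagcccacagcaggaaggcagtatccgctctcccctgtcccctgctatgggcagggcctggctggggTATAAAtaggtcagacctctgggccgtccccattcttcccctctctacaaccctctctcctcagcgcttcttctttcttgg

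The promoters of both high members held 66.3% (NPR1) and 62.3% (PLEKHO1) G and C, with observed over expected CpG of 0.712 and 0.882. FCGR1A held 40.7% and S100A4 60.7% G and C, and their CpG ratios were 0.0807 and 0.293. The RefSeq start lies 463 bases from the start of the deposited gene for PLEKHO1 and 4330 bases from it for S100A4, so those windows belong to 1 of several starts. Entries were found for 130 of the 161 members of the 1q block. Over them the median CpG ratio was 0.789, against 0.826 in 852 promoters of the rest of chromosome 1 and 0.577 in all 34943 promoters. In the 9 matched members whose mean difference over the 3 states was below 0 it was 0.293, and in the 12 matched members with a mean of at least 1 it was 0.715, while their median G and C were close at 60.7% and 61.7%. Both sets are small and were split by the difference that chose the block. The low set holds related genes of the S100 cluster, S100A4 and S100A6 among them, and the ratios were not tested. The letters TATAAA stood in 12 of the 130 (9.23%), against 5.99% in the rest of chromosome 1 and 11.6% of all promoters. CCAAT stood in 55 of them (42.3%), against 38.1% and 34.6%. A match is a description of the letters and not a binding site.

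Over the 161 members of the 1q block the median log2 difference between CES1KD and WT was 0.57 for M0, with 0.55 for both M1 and M2, or 1.49-fold, 1.46-fold and 1.46-fold. Over the rest of chromosome 1 it was 0.02, 0.00034 and -0.0038. The middle 50% of the 1q members lay between 0.28 and 0.87 in M0, and between -0.25 and 0.32 on the rest of the chromosome. The 121 members of the 8p block had medians of 0.46, 0.48 and 0.44, or 1.38-fold, 1.39-fold and 1.35-fold. The rest of chromosome 8 had -0.02, 0.05 and 0.03. All differences are on the log2(FPKM + 1) scale, which understates the change of low genes.

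The short arm of chromosome 1 had medians of -0.03, -0.04 and -0.06 over 635 genes, and the long arm beyond the block 0.11, 0.10 and 0.08 over 365 genes. The long arm of chromosome 8 had -0.03, 0.02 and 0.02 over 255 genes. Among the other 21 chromosomes, chromosome 5 had the lowest median in each state, -0.40, -0.38 and -0.39 over 501 genes. The next lowest were -0.05 in M0 and -0.07 in M1, both on chromosome 13, and -0.06 in M2 on chromosome 10. The highest of the 21 were 0.10 in M0 and 0.07 in M1 and M2. No other whole chromosome had a median as high as either block. The blocks were picked for being high, and stretches of similar length on other chromosomes were not compared.

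**Figure D1:**
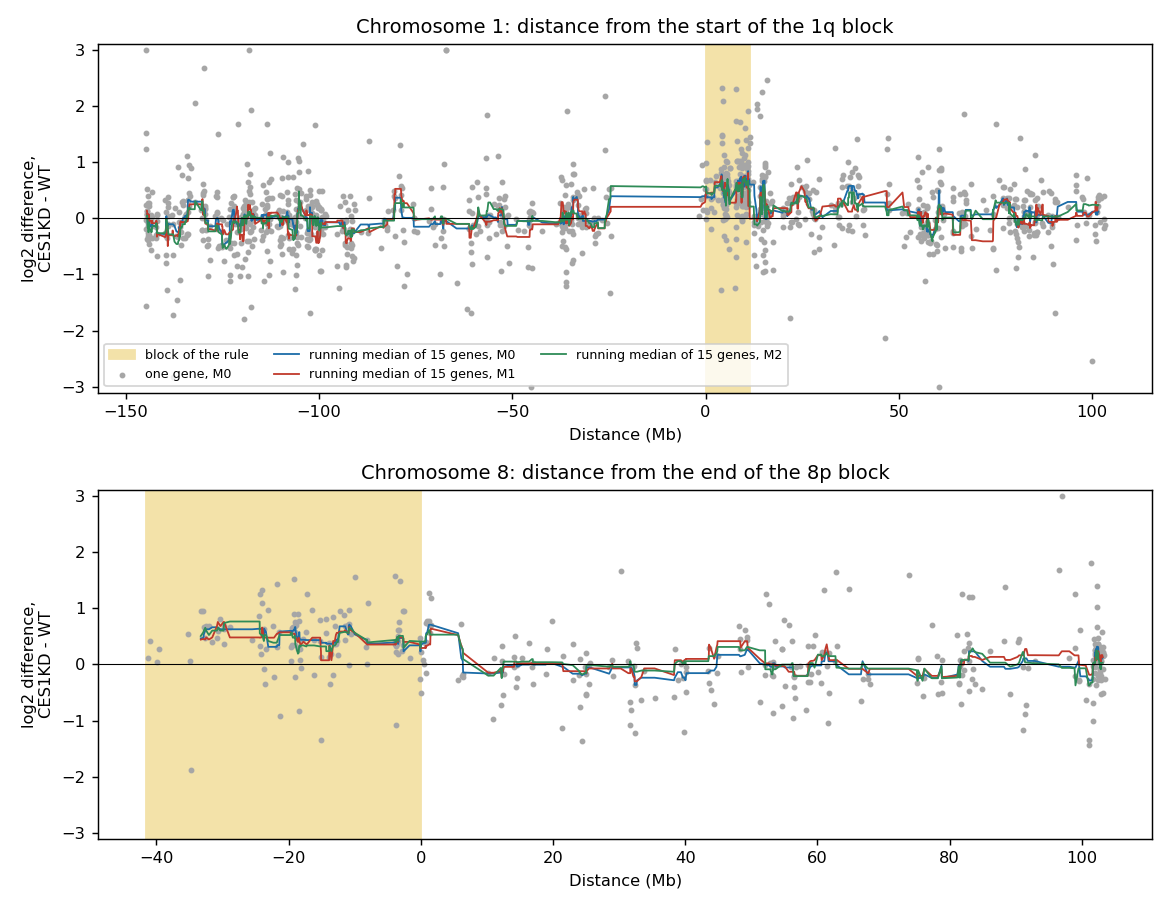
Log2 difference between CES1KD and WT of each protein-coding gene in M0 (grey points, drawn at the edge beyond 3) and running median of 15 genes in M0, M1 and M2, against distance in Mb from the start of the 1q block and from the end of the 8p block. Shading marks the blocks, whose medians in M0 are 0.57 and 0.46, and straight line segments cross stretches with no gene, centromeres among them.

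The difference that the rule used was also described library by library, which adds no support for the choice of the blocks. For each library the median of the members, relative to the WT mean of that state, was set against the same median over the rest of the chromosome. In the 1q block this shift was 0.548 ± 0.020 (SD, n = 4) in CES1KD M0, with 0.545 ± 0.047 for M1 and 0.537 ± 0.077 for M2. The 12 CES1KD libraries ranged from 0.424 to 0.607, and the lowest was library 2 of M2. In the 8p block the shift was 0.483 ± 0.017 for M0, with 0.430 ± 0.043 for M1 and 0.422 ± 0.046 for M2. The 12 values ranged from 0.393 to 0.499. WT libraries lay between -0.0570 and 0.0598 on 1q and between -0.0303 and 0.0137 on 8p, near 0 by construction. No CES1KD library overlapped a WT library in either block, but the blocks were chosen from these same libraries. Without library 2 of CES1KD M2 the M2 shifts were 0.575 ± 0.020 on 1q and 0.399 ± 0.0036 on 8p (SD, n = 3), and the M2 medians over members were 0.57 and 0.43. Leaving it out turned the sign of the M2 difference in 3 members of 1q and 4 of 8p.

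**Figure D2:**
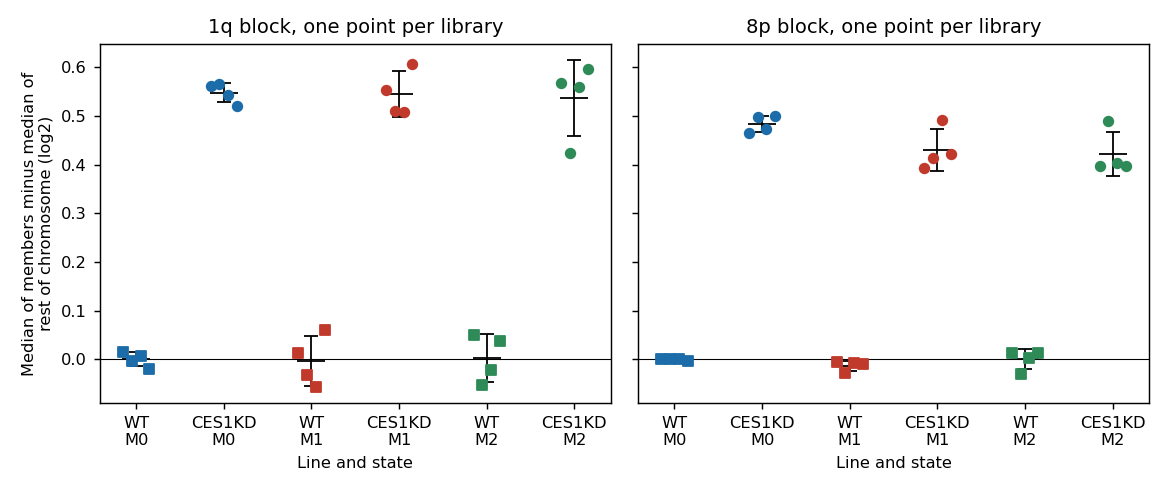
Median of the members minus median of the rest of the chromosome, in log2 units relative to the WT mean of the same state, one point per library, with the mean and SD of each group of 4. CES1KD libraries sit between 0.393 and 0.607 and WT libraries between -0.0570 and 0.0598.

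Genes were called at an adjusted p under 0.05 in limma's test over all 13242 genes kept. In M0, 119 of the 161 members on 1q were called higher in CES1KD, where 28.1% of all genes were, and 6 lower, where 26.3% were. In M1 the counts were 119 higher (background 28.5%) and 6 lower (28.7%), and in M2 124 higher (25.6%) and 6 lower (26.7%). In the 8p block 94, 86 and 89 of 121 were called higher, and 9, 14 and 8 lower. The rule used this contrast, so nothing is read from these counts. In all 3 states, 104 members of the 1q block and 76 of the 8p block were called higher, and 3 and 7 were called lower. Of the rest of chromosome 1, 185 of 1005 genes were called higher in all 3 states and 188 lower. Of the rest of chromosome 8, 56 of 269 were called higher in all 3 and 48 lower. The share of all genes kept that were called in all 3 states is not given, and these counts are descriptions too. The mean of the 3 differences was at least 1 in 21 members of 1q and 11 of 8p, and below 0 in 9 and 17.

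**Figure D3:**
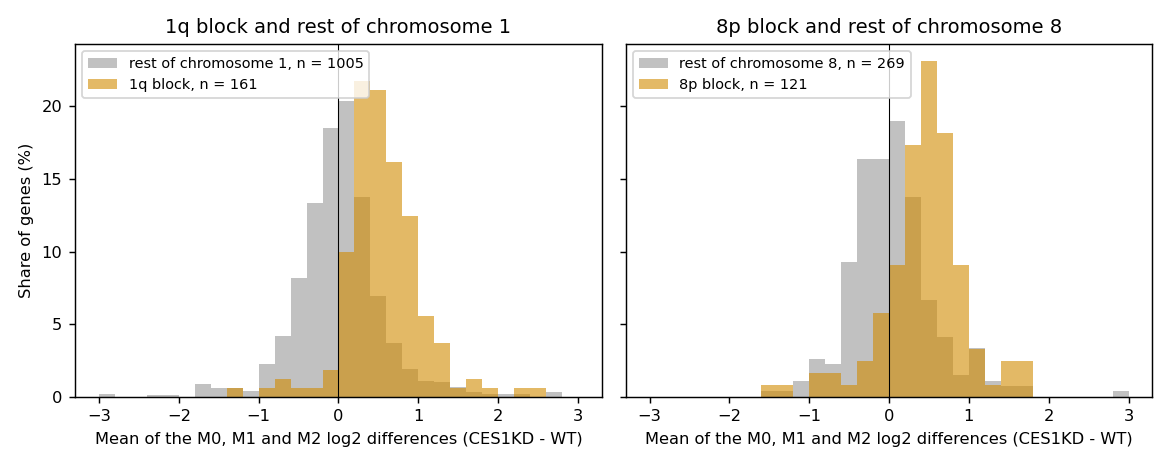
Share of genes (%) by the mean of the 3 log2 differences, for the members of each block and the rest of its chromosome, with values beyond 3 placed in the last bin. The block distributions sit to the right as a whole, and 9 of 161 members of 1q and 17 of 121 of 8p lie below 0.

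The shift ran along the length of both blocks. In windows of 2 Mb the 1q median in M0 ranged from 0.33 (8 members) to 0.63 (50 members), leaving out the last window, which holds 1 member. In windows of 5 Mb the 8p median in M0 ranged from 0.20 (the 4 members nearest the end of the arm) to 0.68 (13 members). The difference on this scale varied with level: in M0 the 54 lowest members of 1q by mean FPKM had a median of 0.35, the middle 53 had 0.57 and the highest 54 had 0.77. On 8p the same 3 classes had 0.35, 0.60 and 0.55, so the highest class was not above the middle one there. Genes of other types inside the blocks, long non-coding RNAs and pseudogenes among them, were not members. Their medians were 0.32, 0.33 and 0.41 over 38 genes of 1q, against -0.09, 0.04 and 0.08 over 235 such genes of the rest of chromosome 1. On 8p they were 0.31, 0.37 and 0.33 over 32 genes, against -0.08, 0.20 and 0.06 over 69 of the rest of chromosome 8.

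Just inside the lower edge of the 1q block RNF115, an E3 ubiquitin ligase, had differences of 0.39, 0.48 and 0.55 in M0, M1 and M2. POLR3C, a subunit of RNA polymerase III, had 0.98, 0.60 and 0.97. Just outside, SRGAP2B had 0.95, 0.87 and 1.06 and FAM72C 0.05, -0.05 and 0.07. These 2 have near-identical copies, as have NBPF15, FAM72D and GPR89A beside them, so their values are uncertain. At the upper edge ETV3L, an ETS-family transcription factor, lies inside with 1.34, 2.13 and 1.54, and ETV3, a related repressor, lies outside with 1.45, 1.81 and 1.77. Beyond ETV3, CD1D, which presents lipid antigens, had -0.65, -0.18 and -0.48. At the edge on chromosome 8, GOLGA7, a palmitoylation cofactor, had 0.47, 0.54 and 0.58 inside and GPAT4, a glycerol-3-phosphate acyltransferase, 0.21, 0.16 and 0.15. Outside it ANK1, ankyrin 1, had -0.51, -0.25 and -1.67, while IKBKB, a kinase that activates NF-kB, had 0.38, 0.29 and 0.61 and POLB, DNA polymerase beta, 0.39, 0.36 and 0.41. The edges of the rule are thus not sharp in the values.

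The members were grouped into 19 role lists, of which 18 held a member. In M0, M1 and M2, 73.9%, 73.9% and 77.0% of all 1q members were called higher. On 8p the shares were 77.7%, 71.1% and 73.6%, and over all genes kept 28.1%, 28.5% and 25.6%. The counts per list below are to be read beside these shares, and a list near the share of its block shows nothing particular to its role. The clustered histones of 1q, parts of the nucleosome, had the highest medians: 1.10 in M0, 1.18 in M1 and 1.32 in M2 over 8 members, of which 7, 5 and 6 were called higher and none lower. HIST2H2BE, which encodes a histone H2B, led the block. Its FPKM in M0 was 4.73, 5.05, 4.60 and 5.55 in WT and 27.6, 27.9, 28.6 and 30.3 in CES1KD. In M1 WT held 10.3 to 12.8 and CES1KD 61.5 to 66.6, and in M2 WT held 4.55 to 5.52 and CES1KD 31.8 to 34.8. The lines did not overlap in any state. The log2 differences were 2.31, 2.40 and 2.5, each with an SE of 0.06. HIST2H2AA3 and HIST2H2AA4, an inverted pair of nearly identical H2A genes, had 1.46, 1.27 and 1.27 and 1.33, 1.4 and 1.37, and their reads cannot be told apart with certainty.

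Of 16 chromatin and transcription genes of 1q, 15 were called higher in each state and none lower, with medians of 0.70, 0.79 and 0.60. MEF2D, a MADS-box transcription factor, went from 44.3 ± 1.0 to 83.3 ± 5.1 FPKM in M0 (mean ± SD, n = 4), and ZBTB7B, a zinc-finger regulator, from 21.1 ± 0.77 to 51.2 ± 3.8. ILF2, a protein that binds double-stranded RNA in complexes, had 0.66, 0.45 and 0.63. CHD1L, a chromatin remodeller, had 0.19, 0.11 and 0.27 and was not called in M1. In the list of RNA, ribosome, chaperonin and proteasome genes, 12, 13 and 13 of 16 were called higher and 0, 1 and 0 lower. CCT3, a chaperonin subunit, had 0.89, 0.62 and 0.81, and SF3B4, a splicing factor, 0.78, 0.64 and 0.55. RPS27, a ribosomal protein and among the most abundant members, was at 307 ± 22 FPKM in WT and 370 ± 21 in CES1KD in M0 and was not called in any state. Its M2 difference was 0.081, or 0.31 without library 2 of CES1KD M2, and was not called either way.

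Of 15 signalling and cytoskeleton genes of 1q, 12, 10 and 13 were called higher, and 1 was called lower, in M1. LMNA, which encodes the lamins A and C of the nuclear envelope, was at 27.8 ± 0.36 FPKM in WT and 74.1 ± 3.5 in CES1KD in M0, and its differences were 1.38, 1.48 and 1.23. ARHGEF2, an activator of RhoA, had 0.93, 0.85 and 0.95, and TPM3, a tropomyosin, 0.61, 0.63 and 0.42. The gene called lower in M1 was CKS1B, a cyclin-dependent kinase partner, with 0.42, -0.25 and 0.21. Among 6 protease and lysosome genes, 4, 5 and 4 were called higher and none lower. CTSS, the protease cathepsin S that prepares MHC class II, had 0.67, 0.48 and 0.58. Of 7 lipid and isoprenoid enzymes, with HDGF, a growth factor, on the same list, 6, 4 and 5 were called higher. CERS2, a ceramide synthase, had 1.02, 1.14 and 0.77, while PMVK of the mevalonate pathway had 0.28, 0.19 and 0.24 and was not called. Without library 2 of CES1KD M2 its M2 difference was 0.35 and was called.

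The 7 survival, immune receptor and interferon genes were split by state: 6 were called higher in M0, 3 in M1 and 5 in M2, and 1, 2 and 1 lower. MCL1, an anti-apoptotic BCL2 relative, was at 107 ± 4.7 FPKM in WT and 235 ± 6.6 in CES1KD in M0, and at 188 ± 7.5 and 362 ± 11 in M1. TXNIP, which binds thioredoxin, was at 165 ± 3.3 and 423 ± 9.9 FPKM in M0. ADAR, the interferon-inducible RNA-editing enzyme, was at 36.5 ± 1.2 and 123 ± 6.6 FPKM in M0. These 3 were among the highest by level, with no overlap between lines in M0. IL6R, a chain of the interleukin 6 receptor, had 0.38, 0.01 and 0.48.

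The S100 genes, small calcium-binding proteins, did not move as 1 group: of 9 members 3, 3 and 4 were called higher and 2, 1 and 3 lower, with medians of 0.20, 0.02 and -0.06. S100A11, the most abundant member of the block, was at 462 ± 26 FPKM in WT and 857 ± 47 in CES1KD in M0, with differences of 0.89, 0.41 and 0.71. S100A10, the annexin A2 partner, had 0.89, 0.55 and 1.13, and S100A16 had 1.73, 1.00 and 0.80. S100A4, linked to cell motility, went the other way. In M0 it was at 245, 232, 238 and 252 FPKM in WT and at 147, 153, 157.2 and 141 in CES1KD, with no overlap. In M1 the ranges were 57.2 to 68.5 and 36.5 to 47.1, and in M2 243 to 310 and 90.2 to 145.1. Its differences were -0.69, -0.63 and -1.10 (SE 0.11), and -0.95 in M2 without library 2 of CES1KD. S100A9, the neutrophil and monocyte calgranulin, was at 3.82, 3.34, 3.02 and 3.86 FPKM in WT M0 and at 1.15, 1.17, 0.688 and 0.702 in CES1KD M0. In M1 its lines overlapped. S100A6 had -0.37, -0.45 and -0.45 with an SE of 0.33 and was not called, and its M2 difference was -0.0071 without library 2 of CES1KD, which held 44.4 FPKM where the other 3 held 124 to 175. None of 15 epidermal differentiation genes found in the block passed the filter.

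The lowest member of the 1q block was FCGR1A, the high-affinity IgG receptor CD64, an interferon gamma target. In M0 its FPKM was 16, 16.2, 14.1 and 18 in WT and 6.03, 5.86, 5.94 and 6.38 in CES1KD. In M1 WT held 37.6 to 43.0 and CES1KD 11.6 to 13.2, and in M2 6.84 to 8.92 and 2.70 to 4.08. The lines did not overlap in any state, and the differences were -1.27, -1.65 and -0.96 (SE 0.09). FCGR1A overlaps HIST2H2BF on the opposite strand, which had 0.87, 1.26 and 0.94, and it has near-identical copies, so its level is uncertain. ADAMTSL4, a matrix protein, had -0.32, 0.07 and -0.32, and RBM8A, a core part of the exon junction complex, -0.02, -0.39 and -0.15 (-0.19 in M2, called lower, without library 2 of CES1KD). The other members named as lowest, EFNA4, FDPS and MRPL24, were called lower in no state.

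The other high members of 1q differed in level and role. NPR1, the receptor for atrial natriuretic peptide, was at 0.274, 0.200, 0.325 and 0.217 FPKM in WT M0 and at 4.84, 5.55, 5.25 and 5.01 in CES1KD M0. It was at 1.06 to 1.43 and 7.16 to 7.96 in M1 and at 1.41 to 1.86 and 10.4 to 15.2 in M2, with differences of 2.30, 1.96 and 2.38 (SE 0.09). PLEKHO1, a membrane-binding adaptor of casein kinase 2, was at 10.1, 9.99, 10.1 and 9.85 FPKM in WT M0 and at 43.5, 44.4, 47.9 and 47.9 in CES1KD M0. Neither gene overlapped between the lines in M0. Library 2 of CES1KD M2 held 35.1 FPKM of PLEKHO1 where the other 3 held 54.2 to 58.5. CRABP2, a carrier of retinoic acid, had 1.91, 1.61 and 1.42, and SYT11, a synaptotagmin of membrane traffic, 1.61, 1.53 and 1.24.

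**Figure D4:**
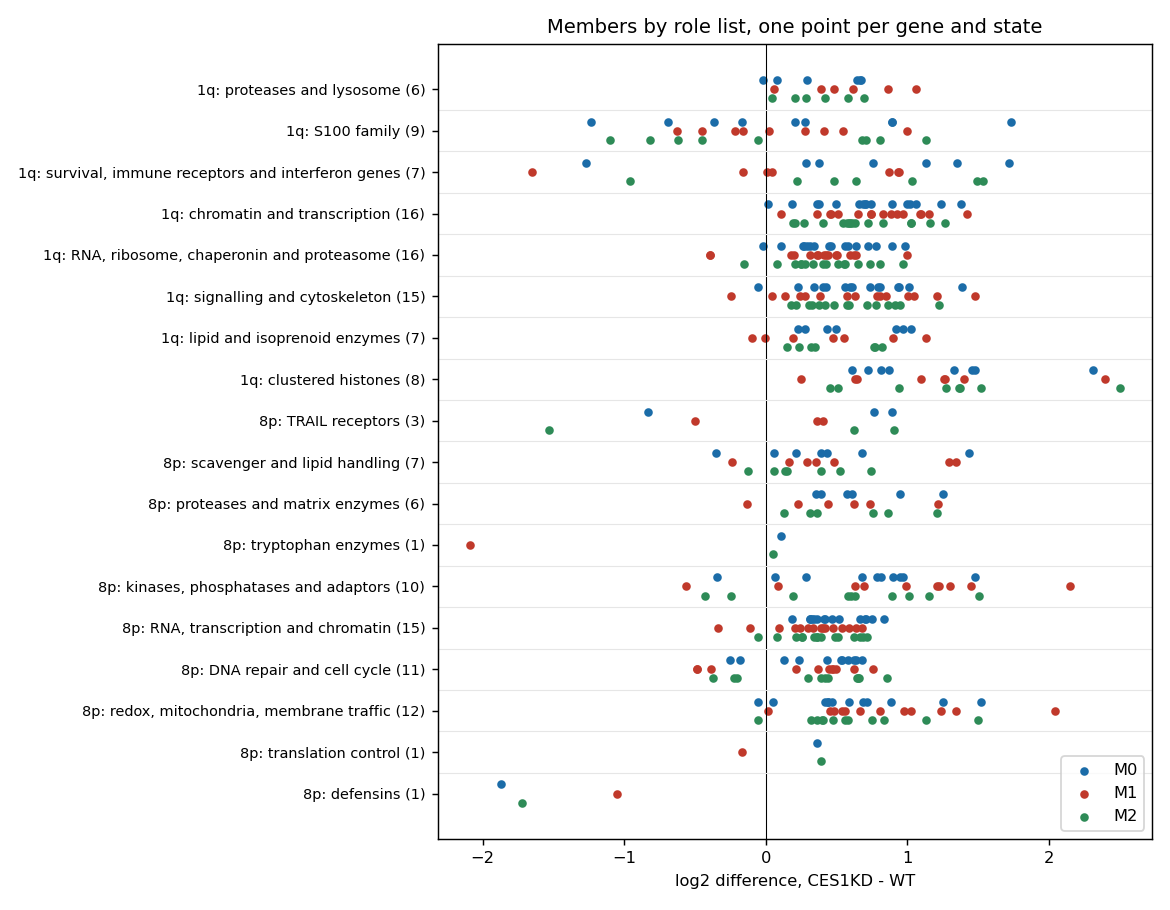
Log2 difference between CES1KD and WT of every member of a role list, by state, with the number of members in brackets. The chromatin list of 1q lies wholly above 0, the S100 list spans 0, and the only defensin kept lies below 0 in each state.

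On 8p the largest list was RNA, transcription and chromatin: 15, 11 and 13 of 15 members were called higher and 0, 1 and 0 lower, with medians of 0.42, 0.39 and 0.36. XPO7, a nuclear exporter, had 0.31, 0.24 and 0.26 (0.11 in M2, not called, without library 2 of CES1KD), and LSM1, part of the mRNA decay ring, 0.51, 0.39 and 0.51. ELP3, the acetyltransferase of Elongator, was the one called lower in M1, with 0.19, -0.33 and -0.05 (-0.12 in M2 without that library). Of 12 redox, mitochondria and membrane traffic genes, 10, 11 and 11 were called higher and none lower. SARAF, a regulator of calcium entry, was at 61.9 ± 2.7 FPKM in WT and 115 ± 3.5 in CES1KD in M0, and had 0.88, 1.24 and 0.84. GSR, glutathione reductase, had 0.72, 0.56 and 0.56, and ATP6V1B2, a proton pump subunit of lysosomes, 0.59, 0.98 and 0.75.

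SLC39A14, an importer of zinc, iron and manganese, was at 6.70, 7.13, 6.48 and 7.31 FPKM in WT M0 and at 19.9, 23.4, 21.3 and 22.1 in CES1KD M0. In M1 the ranges were 8.59 to 8.93 and 37.1 to 41.3, and in M2 6.95 to 7.78 and 20.3 to 24. The lines did not overlap, and the differences were 1.52, 2.04 and 1.5 (SE 0.06). ZNF703, a transcriptional repressor, was at 5.63 to 6.65 FPKM in WT M0 and at 19.4 to 21.8 in CES1KD M0. In CES1KD M2 it was at 26.5, 8.95, 28.2 and 28.9, so that library 2 was low, and its difference in M2 was 1.46, or 1.84 without that library.

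Among 10 kinases, phosphatases and adaptors of 8p, 8 were called higher and 1 lower in each state. FGFR1, a fibroblast growth factor receptor, was at 3.41 ± 0.14 FPKM in WT and 11.3 ± 0.36 in CES1KD in M0, with differences of 1.48, 1.30 and 1.5. PTK2B, the kinase PYK2, had 0.82, 0.69 and 0.58, and PPP2CB, a catalytic subunit of phosphatase 2A, 0.97, 1.22 and 1.01. The gene called lower was PBK, a mitotic kinase, with -0.35, -0.56 and -0.43. NRG1, a ligand of ERBB receptors, was at 0.0319 to 0.0737 FPKM in WT M0 and at 1.92, 1.95, 2.25 and 2.28 in CES1KD M0. In M1 CES1KD held 6.06 to 6.97, and in M2 0.832 to 0.997, while WT was at 0.207 or less in both. PDGFRL, a protein resembling the platelet-derived growth factor receptor, had 1.33, 1.17 and 1.97.

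Of 7 scavenger and lipid genes, 5, 6 and 4 were called higher and 1, 1 and 0 lower. LPL, the lipase that frees fatty acids from lipoproteins, was the most abundant member of 8p. Its level was 206 ± 8.2 FPKM in WT and 557 ± 11 in CES1KD in M0. In M1 the levels were 254 ± 25 and 643 ± 39, and in M2 they were 669 ± 45 and 1124 ± 137. MSR1, the class A scavenger receptor, was at 69.6 ± 4.5 and 94.1 ± 5.0 FPKM in M0 and at 71.0 ± 8.5 and 175 ± 20 in M1. The M2 difference of MSR1 was 0.14, or 0.036 without library 2 of CES1KD M2, and was not called either way. FDFT1, squalene synthase, had 0.68, 0.48 and 0.52, and AGPAT5, an acyltransferase, 0.06, -0.24 and -0.12. Without library 2 of CES1KD M2 the M2 difference of AGPAT5 was -0.21 and was called. ASAH1, the lysosomal acid ceramidase, was the one called lower in M0, with -0.35, 0.29 and 0.06. Among 6 proteases and matrix enzymes, 6, 4 and 6 were called higher and 0, 1 and 0 lower. ADAM9, a sheddase, had 0.95, 1.22 and 0.76, and CTSB, the lysosomal protease cathepsin B, 0.36, -0.13 and 0.13.

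Of 4 listed TRAIL receptors 3 were members, and they differed in direction. TNFRSF10A and TNFRSF10B, the death receptors, had 0.77, 0.36 and 0.63 and 0.89, 0.41 and 0.91. TNFRSF10D, a decoy receptor with a truncated death domain, had -0.83, -0.50 and -1.53. All 3 were called in each state. The DNA repair and cell cycle list also held both directions: 8, 7 and 8 of 11 were called higher and 1, 3 and 1 lower. TNKS, a tankyrase, had 0.68, 0.76 and 0.65, and PCM1, a centriolar satellite protein, 0.64, 0.48 and 0.39. Without library 2 of CES1KD M2 the M2 difference of PCM1 was 0.21 and was not called. GINS4, part of the replicative helicase, had -0.25, -0.49 and -0.37, and CDCA2, a mitotic phosphatase partner, -0.18, -0.39 and -0.20 (-0.36 in M2, called lower, without that library). EIF4EBP1, a repressor of translation, had 0.36, -0.17 and 0.39 and was not called in any state, but its M2 difference was 0.66, and called, without that library.

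The lowest member of 8p was DEFB1, beta-defensin 1, an antimicrobial peptide and the 1 defensin of 9 found in the block that passed the filter. It was at 2.87, 5.04, 3.87 and 4.41 FPKM in WT M0 and at 0, 0.417, 0.237 and 0.953 in CES1KD M0. In M1 the ranges were 1.36 to 3.36 and 0.0982 to 1.44 and overlapped, and in M2 they were 2.01 to 2.95 and 0 to 0.168. PNMA2, a neuronal antigen of the Ma family, was at 1.83 to 1.97 FPKM in WT M0 and at 0.0635 to 0.192 in CES1KD M0, with differences of -1.35, -1.49 and -1.04. LZTS1, a leucine zipper protein, was at 4.25, 4.03, 3.71 and 3.65 FPKM in WT M0 and at 1.60, 1.87, 1.57 and 1.39 in CES1KD M0. In M2 it was at 10.3 to 11.6 and 2.56 to 4.21, and its differences were -0.91, -0.65 and -1.44. ADGRA2, an adhesion receptor of Wnt7 signalling, had -1.08, -0.25 and -0.63. PNOC, which encodes prepronociceptin, had -0.18, -0.46 and -0.15 and was not called, and its M2 difference turned to 0.13 without library 2 of CES1KD M2.

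**Figure D5:**
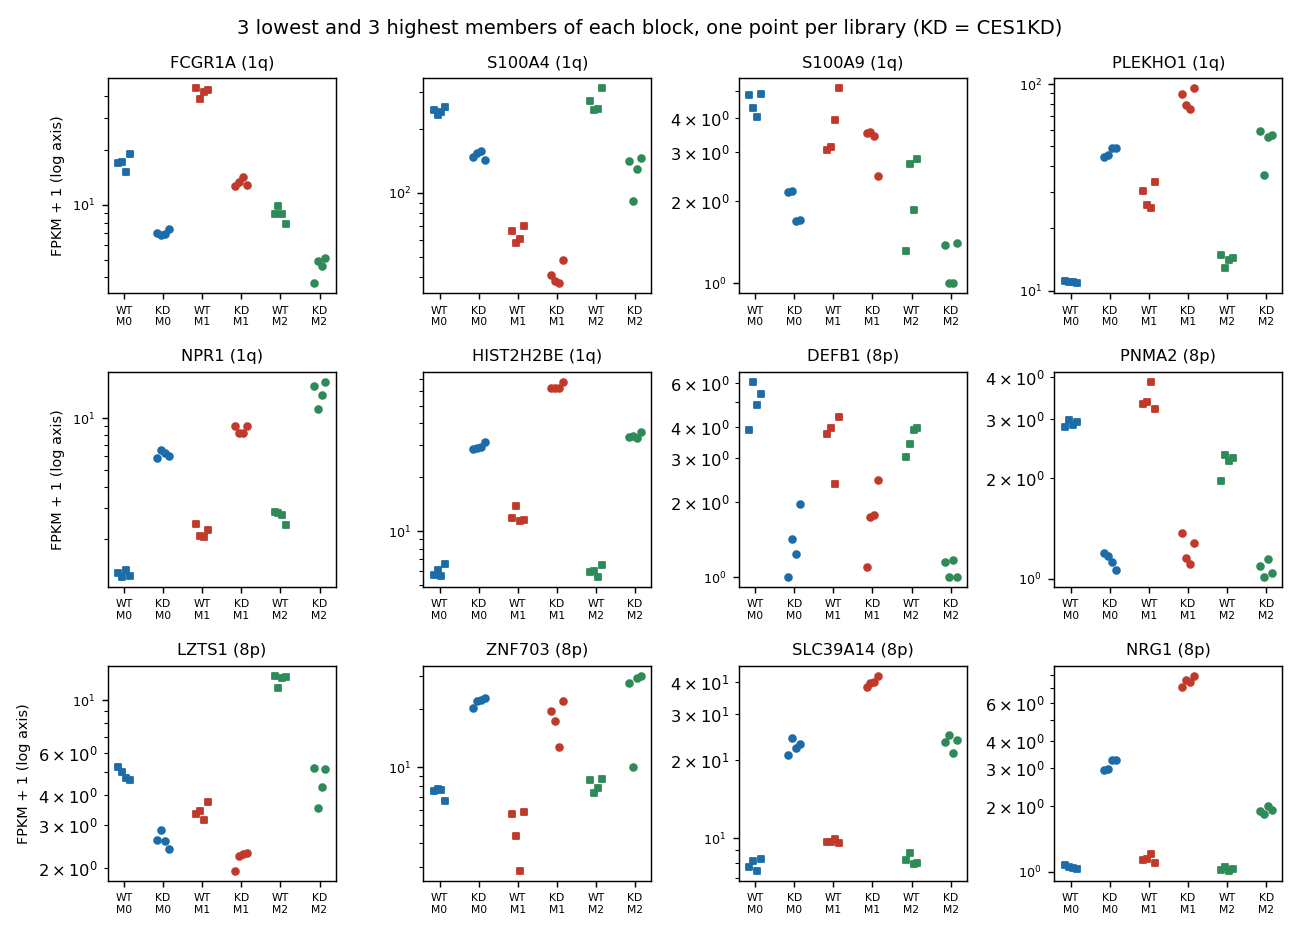
FPKM + 1 on a log axis of the 3 members with the lowest and the 3 with the highest mean difference in each block, one point per library (squares WT, circles CES1KD). The 12 genes were picked by this difference, so it is only a description that the lines do not overlap in M0 for any of them. Library 2 of CES1KD M2 lies apart for ZNF703 and PLEKHO1.

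Whether a member's knockdown effect depended on the state was not used to choose the blocks and was tested in the same limma fit. Between M1 and M0, 44 of 161 members of 1q differed, where 23.6% of all genes did: 17 had a higher effect in M1 (10.4% of all genes) and 27 a lower one (13.2%). On 8p 31 of 121 differed, 18 higher and 13 lower. Between M2 and M0, 6 members of 1q (1 higher, 5 lower) and 17 of 8p (6 higher, 11 lower) differed, where 6.65% of all genes did, 2.41% higher and 4.24% lower. The shares in M1 were near the background in both blocks. On the 8p block the shift per library, given above, had its highest group mean in M0. The median of the M1 differences was -0.02 over the 1q members and -0.0086 over the 8p members and turned to 0.02 in both with equal medians over libraries. The count of 17 on 8p fell to 10 or 11 without library 1 or 2 of WT M0, library 2 or 4 of WT M2, or library 2 or 4 of CES1KD M0.

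IDO1, the interferon-induced enzyme that degrades tryptophan, had the largest such difference. It was listed at 0 in all 4 WT M0 libraries and stood at 0.0784 ± 0.058 FPKM in CES1KD M0 (mean ± SD, n = 4). In M1 it was at 52.7 ± 5.3 FPKM in WT and 11.6 ± 1.2 in CES1KD. The effect in M1 was lower than in M0 (difference -2.19, SE 0.10, limma adjusted p = 4.9e-13). IDO1 passed the filter through M1 libraries alone, so this difference is a description. Other members with a lower effect in M1 were ADAMDEC1, a macrophage metalloprotease (difference -1.02), NES, which encodes the filament protein nestin (-1.12), and SEMA4A, a semaphorin of immune cells (-0.91). SEMA4A was at 0.617 ± 0.12 and 1.73 ± 0.12 FPKM in M0 and at 8.48 ± 0.39 and 7.49 ± 0.25 in M1. ADAR had a difference of -0.85 (SE 0.09, limma adjusted p = 3.4e-07): its knockdown effect was 1.72 in M0 and 0.87 in M1, where WT had 107 ± 6.5 FPKM. POLR3D, another RNA polymerase III subunit, and PRAG1, a pseudokinase, had -0.77 and -0.81.

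Effects higher in M1 were those of STC1, a secreted glycoprotein (difference 1.33), DOK2, an adaptor of tyrosine kinases (1.38), DUSP4, a phosphatase of MAP kinases (1.20), and NRG1 (1.16, SE 0.09, limma adjusted p = 9.9e-10). STC1 passed the filter through CES1KD M1 alone, the group where it is high, so its difference follows from its being kept and is a description. It was at 0.0487 ± 0.017 and 0.445 ± 0.068 FPKM in M0 and at 0.111 ± 0.059 and 2.86 ± 0.32 in M1. DUSP4 was at 8.03 ± 0.41 and 16.4 ± 1.6 FPKM in M0 and at 4.14 ± 0.27 and 21.8 ± 1.8 in M1. On 1q, PBXIP1, a partner of PBX proteins (1.06), S100A9 (1.01), GLMP, a lysosomal membrane protein (0.79), and ETV3L (0.79) had higher effects in M1. For S100A9 this is a negative effect that came nearer 0: it was lower in CES1KD in M0, and its lines overlapped in M1. The value of ETV3L turned to -0.21 with a pseudocount of 0.1. NRG1 and ETV3L passed the filter through CES1KD libraries alone, so their differences between states are descriptions too. SLC39A14 and MSR1, named above, had differences of 0.52 and 0.86.

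Between M2 and M0, the largest difference was that of SLC7A2, a transporter of arginine (1.4). SLC7A2 likewise passed the filter through CES1KD M2 alone, and its value is a description. It was at 0.0498 ± 0.029 and 0.191 ± 0.041 FPKM in M0 and at 0.623 ± 0.034 and 3.93 ± 1.0 in M2, or 3.44 ± 0.14 in CES1KD M2 without library 2. In all, 2 members of 1q and 2 of 8p reached 1 FPKM in the libraries of a single group. PDGFRL (0.65), MFHAS1, a leucine-rich repeat GTPase (0.43), ADGRA2 (0.44) and SLC50A1, a sugar transporter (0.41), also had a higher effect in M2 than in M0. For ADGRA2 this is an effect nearer 0, from -1.08 to -0.63, while its level was lower in M2 than in M0 in both lines. Its call was lost in 14 of the alternatives run. Effects lower in M2 were those of S100A16 (-0.93), TNFRSF10D (-0.70), LPL (-0.69), NRG1 (-0.66), EGR3, an immediate early transcription factor (-0.62), SYT11 (-0.37), CERS2 (-0.26) and UBAP2L, a stress granule protein (-0.21). PDGFRL and EGR3 met the filter only by counting CES1KD libraries, and ADGRA2 only by counting WT libraries. The differences of these members between states are descriptions too.

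The response to stimulation within each line was also not used to choose the members. In WT, 86 members of 1q changed between M1 and M0, 64 higher and 22 lower, and 65 of 8p, 36 higher and 29 lower, where 48.1% of all genes changed (26.4% higher, 21.8% lower). In CES1KD, 85 of 1q (64 higher, 21 lower) and 71 of 8p (38 higher, 33 lower) changed, where 44.7% of all genes did (24.9% higher, 19.8% lower). Between M2 and M0, 45 of 1q (26 higher, 19 lower) and 35 of 8p (25 higher, 10 lower) changed in WT, where 27.1% did (14.6% higher, 12.5% lower). In CES1KD 40 of 1q (22 higher, 18 lower) and 43 of 8p (29 higher, 14 lower) changed, where 22.8% did (11.3% higher, 11.5% lower). The comparisons of a line share its M0 libraries. The direction of the M1 counts depended on the scaling. With each library's total fragments as its size, the median of all genes moved to -0.20 in WT and -0.18 in CES1KD, and 33 members of 1q were higher in M1 and 52 lower in WT, and 26 and 49 in CES1KD. On 8p that scaling gave 18 higher and 56 lower in WT and 21 and 55 in CES1KD. In M2 it gave 19 higher and 34 lower on 1q and 20 and 19 on 8p in WT, and 18 and 23 and 26 and 19 in CES1KD. With equal medians 8p had 30 higher and 40 lower in M1 in WT.

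Single members responded far beyond those shifts. IDO1 was higher in M1 than in M0 by 5.74 in WT and 3.55 in CES1KD, and ADAMDEC1 by 2.87 and 1.84. CTSS was higher by 1.51 and 1.32, CTSB by 1.75 and 1.26, and FCGR1A by 1.30 and 0.91. S100A4 had -1.94 and -1.87. In M2, LPL was higher by 1.70 in WT and 1.00 in CES1KD, TNFRSF10D by 1.19 and 0.49, and LZTS1 by 1.31 and 0.79. PCM1 was higher by 1.13 and 0.88. Each of these passed limma's test, in 4 against 4 libraries. IDO1 passed the filter through M1 libraries alone, so its rise in M1 follows from its being kept and is a description.

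Reads shared between overlapping genes could add to a member, which was not tested. Of the members, 84 on 1q and 71 on 8p overlap another protein-coding gene or a long non-coding, antisense or processed transcript, 24 and 14 of them on the same strand. Overlaps with pseudogenes were not counted, and whether strand was used in counting is not given. Without any overlapping member the medians were 0.67, 0.57 and 0.58 on 1q and 0.52, 0.55 and 0.53 on 8p.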

How the data were processed

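RNA sequencing of 24 THP-1 libraries in 6 groups of 4 was used. The authors deposited 1 table of FPKM for 58735 genes with gene lengths, biotypes and coordinates; the submitters' processing notes name CASAVA, HISAT2 and DESeq, with no versions or roles. The genome build was not given in the sources used here; coordinates of 58698 of the 58735 genes equal those of GENCODE 29 on GRCh38. Every FPKM value was a whole number of fragments per library (100%, tolerance 0.001 fragments), which gave the library size that the authors divided by. That size was 0.870 to 1.14 times the total fragments on genes, so it was an adjusted size. It was below the total in every M1 library and above it in every M0 and M2 library. Depth was 14881563 to 26671681 fragments, and low genes are the least precise. The RNA integrity number is stated only as above 4 for all 24 libraries, with no value per library.

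Genes with at least 1 FPKM in at least 4 libraries were kept, 1 was added before log2, and 1 model with a mean per group was fitted with limma 3.58.1 (R 4.3.3; lmFit, contrasts.fit, eBayes with an intensity trend), with two-sided tests, Benjamini-Hochberg adjustment over 13242 genes and calls under 0.05. No count test was run, since the values are FPKM. The script was tested on simulated data. Tables were made with Python 3.11.15 and pandas 2.3.3.

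The members, role lists and tests were chosen with earlier results of these data known. The text names up to 4 members of highest mean FPKM per role list and the 3 most abundant per block. It names the 6 highest and 10 lowest members per block by the mean of the 3 differences (at least 2 FPKM in the higher line in 1 state). Named too are the 5 nearest genes on each side of each edge. Of the members called for a state difference, up to 4 per block and direction with the largest difference are named. Some genes that this rule picks are not reported here. Alternatives were another pseudocount, no filter, a mean of at least 5 FPKM, equal medians, a replicate block, separate fits per state, edges moved by 1 Mb, leaving out each library and, chosen after seeing the data, total fragments as library size.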

Additional observations from a re-analysis of the deposited data

Results flagged for a closer look

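Each group of 4 libraries was searched for a library far from the other 3, for both block shifts and 12 genes. Of 84 groups 8 had one, where chance flags about 1 in 20. In CES1KD M2, library 2 had an 8p shift of 0.490, above the others, and a ZNF703 level of 8.95 FPKM, below them. Library 2 of WT M1 had an 8p shift of -0.029. Library 4 of CES1KD M1 had 1.45 FPKM of S100A9 and 66.6 FPKM of HIST2H2BE. Library 2 of WT M2 had 10.3 FPKM of LZTS1, library 4 of WT M0 had 5.63 FPKM of ZNF703, and library 3 of WT M1 had 8.93 FPKM of SLC39A14.

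The knockdown effect differed between states, by limma's test of the difference, in 29 named cases. Of the named members, STC1 and SLC7A2 passed the filter through 1 group alone, IDO1 through M1 alone, and NRG1 and ETV3L through CES1KD alone. PDGFRL and EGR3 met the filter only by counting CES1KD libraries, and ADGRA2 only by counting WT libraries. The differences of all these members between states are descriptions. In M1 against M0 on 1q the log2 differences of effects were -1.12 for NES, -0.91 for SEMA4A, -0.85 for ADAR, -0.73 for S100A16, 1.06 for PBXIP1, 1.01 for S100A9, 0.79 for GLMP and 0.79 for ETV3L. On 8p they were -2.19 for IDO1, -1.02 for ADAMDEC1, -0.81 for PRAG1, -0.77 for POLR3D, 1.38 for DOK2, 1.33 for STC1, 1.20 for DUSP4 and 1.16 for NRG1. In M2 against M0 on 1q they were -0.93 for S100A16, -0.37 for SYT11, -0.26 for CERS2, -0.21 for UBAP2L and 0.41 for SLC50A1. On 8p they were -0.70 for TNFRSF10D, -0.69 for LPL, -0.66 for NRG1, -0.62 for EGR3, 1.4 for SLC7A2, 0.65 for PDGFRL, 0.44 for ADGRA2 and 0.43 for MFHAS1.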

How the results depend on the processing

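No block median of CES1KD over WT changed sign in any alternative run, while medians near 0 of the state differences and of the responses did under other scalings; where values moved, the cause was not tested beyond what each setting does to the scale or the gene set. In M0, M1 and M2 a pseudocount of 0.1 gave 0.66, 0.63 and 0.63 on 1q and 0.61, 0.55 and 0.54 on 8p, and the ratio of mean FPKM with no pseudocount 0.67, 0.65 and 0.64 and 0.61, 0.59 and 0.55. With no filter the medians were 0.33, 0.34 and 0.34 and 0.22, 0.17 and 0.20, 14 members of 1q were called lower in M0, 14 of 8p in M0 and 17 in M2, and 11 of 8p differed between M2 and M0. With a mean of at least 5 FPKM, which leaves fewer members, the medians were 0.67 (M0) and 0.62 (M1) on 1q and 0.60, 0.54 and 0.52 on 8p. The lower calls were then 2 in M0 and 2 in M2 on 1q, and 1, 6 and 0 on 8p. In that setting 7 members of 8p differed between M2 and M0, 41 responded in WT M1, 43 in CES1KD M1 and 27 in CES1KD M2. Equal medians gave 0.53 and 0.42 in M0 on 1q and 8p. Total fragments gave 0.51 and 0.47 on 1q and 0.39 and 0.40 on 8p in M0 and M1. Members that did not respond to M1 in WT gave 0.51 and 0.54 in M0. Leaving out 1 library gave 0.554 to 0.579 for 1q in M0 and 10 to 18 members of 8p between M2 and M0. ETV3L, M1 against M0, turned to -0.21 with a pseudocount of 0.1. The share of all genes called is not given for any alternative, so the counts of members there are descriptions. Edges moved inward by 1 Mb and separate fits per state, run for the medians and calls of CES1KD over WT, kept those counts within 1.5 times and those medians within the spread of libraries.

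Same-numbered libraries of the 2 lines were compared within each state. Correlations of their deviations ran from -0.058 to 0.413 and were over 0.1 in 5 of 12 pairs, in M1 and M2 and in no state in every pair, so the numbers were not taken to pair the samples. With a replicate block all block results stayed on the same side: 119 members of 1q and 94 of 8p were called higher in M0, and 50 and 33 differed between M1 and M0. Genes near 1 FPKM are limited by depth and by the value of 1 added.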

Other observations

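Raised values also stood past the edges of the rule, in stretches chosen after their values were seen. On chromosome 8, 14 genes from ANK1 to HGSNAT had medians of 0.63, 0.34 and 0.57 in M0, M1 and M2, and 5 genes from SPIDR to UBE2V2 had -0.20, -0.23 and -0.24. On chromosome 1, 18 genes from ETV3 to IGSF8 had 0.10, -0.0078 and -0.09. The next 16 genes, from PEA15 to DEDD, had 0.69, 0.52 and 0.62, and 24 genes from UFC1 to NUF2 had 0.02, 0.24 and 0.09.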
